A study of Mus musculus with 8 samples.

Results

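The genes described here encode the enzymes that break down amino acids and the enzymes of the urea cycle in the liver. The set was chosen by name and not by its values, and it lists 41 genes, of which 37 could be measured among 12393 genes in all. A gene counted as measured when the array annotation gave at least 1 probe set to it and to no other gene, and the brightest such probe set, by its mean over the 8 arrays, stood for it. The serine and threonine dehydratases Sds and Sdsl and the liver glutaminase Gls2 had no such probe set, and the probe set of Ass1, the urea cycle enzyme argininosuccinate synthetase, also named Gm5424, so these 4 genes were not analysed here. Mut, methylmalonyl-CoA mutase, is annotated as Mmut.

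The study used 8 Affymetrix arrays of mouse liver RNA, with 2 arrays per genotype, all on a C57BL strain background and on standard chow. The 4 genotypes were wild-type, SHP-/-, OB-/- (leptin knockout) and OB-/-/SHP-/-, which lacks both genes. SHP, encoded by Nr0b2, is a nuclear receptor that lacks a DNA-binding domain and represses other transcription factors, and leptin is a hormone of fat tissue whose loss causes overeating and obesity. The labels name no cell type to which either knockout was limited, so neither effect is tied to the hepatocyte, and they give no age or sex.

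The liver is the main site at which amino acids in excess of need are degraded. Transaminases and specific first enzymes remove or prepare the amino group, the carbon skeletons flow into glucose, ketone bodies or the citric acid cycle, and the nitrogen leaves as urea. Many of these genes are known to be induced by glucagon and glucocorticoids during fasting or protein feeding, and the urea cycle and several of the breakdown enzymes are most abundant in periportal hepatocytes. Branched-chain amino acids differ in that their first transamination takes place mostly outside the liver.

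The values are log2 expression values per probe set as the authors deposited them, and a difference of 1 on this scale is a 2-fold change. Differences are given ± the moderated standard error (SE) of limma, fitted to all 8 arrays over all genes. A gene was called at a Benjamini-Hochberg adjusted p below 0.05, adjusted over all genes within a comparison. The words rose and fell are kept for called genes. Probe sets differ in their response, so levels are compared between arrays and not between genes. With 2 arrays in a genotype, a test sets a difference against the spread between replicates, pooled over all genotypes and moderated over all genes. Nothing in the labels says that the replicates came from separate animals.

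A few facts of the series as a whole bear on the results. OB-/- replicate 1 stood apart, with Xist, the RNA of the inactive X chromosome of females, at 7.41 against 4.31 to 4.70 elsewhere, and the Y-linked Eif2s3y at 6.57 or more on all 8 arrays. Calls and shares that rest on this array are also given without it. Nr0b2 read 8.71 and 8.74 on the wild-type arrays, 7.78 and 8.31 on those of SHP-/-, 8.01 on both of OB-/- and 6.66 and 7.11 on those of OB-/-/SHP-/-, and Lep lay at 3.16 to 3.53 throughout. The sources used here do not say whether the probe set of Nr0b2 lies in the deleted stretch. The 3′ minus 5′ offset of the Actb control probe sets, which grows as RNA is degraded, averaged 1.88 for wild-type, 1.30 for SHP-/-, 0.83 for OB-/- and 0.86 for OB-/-/SHP-/-, and that of Gapdh, in this order, 0.90, 0.27, -0.04 and 0.07. These offsets were highest in wild-type, lower in SHP-/- and lowest in the leptin-null genotypes, which differed little, and their part in the results was not tested. All 6 measured hepatocyte markers of 8 listed lay above the median of all values, and their log2 summed signal was 15.96 to 16.02 for wild-type, 15.99 to 16.03 for SHP-/-, 15.84 to 15.92 for OB-/- and 15.95 to 15.97 for OB-/-/SHP-/-. Taken gene by gene, their median difference was -0.28 in OB-/- against wild-type and -0.15 in OB-/-/SHP-/- against SHP-/-. In the first of these 1 of the 6, Hnf4a, fell, where 9.36% of all genes fell.

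Across the whole set, leptin loss moved genes in both directions, and SHP loss gave calls in leptin-null liver and 0 in leptin-intact liver, a difference that passed its own test for Got1. In OB-/- against wild-type, 7 of the 37 genes rose and 6 fell, which is 35.1% of them. Of all genes, 16.9% were called in this comparison, 7.58% higher and 9.36% lower. In the same comparison without SHP, OB-/-/SHP-/- against SHP-/-, 5 rose and 1 fell, or 16.2%, against 10.6% of all genes called, 4.95% higher and 5.62% lower. SHP loss in leptin-intact liver, SHP-/- against wild-type, gave 0 calls by limma, against 0.323% of all genes, 0.226% higher and 0.0968% lower. SHP loss in leptin-null liver, OB-/-/SHP-/- against OB-/-, raised 4 and lowered 0, or 10.8%, against 2.14% of all genes called, 1.26% higher and 0.88% lower. The difference between both effects of SHP loss, the interaction, was called for 1 gene, Got1, or 2.70%, against 0.549% of all genes, 0.355% higher and 0.194% lower. At an unadjusted p below 0.05 lay 17 of the genes in OB-/- against wild-type, 13 in OB-/-/SHP-/- against SHP-/-, 2 in SHP-/- against wild-type, 10 in OB-/-/SHP-/- against OB-/- and 9 in the interaction, where the shares of all genes were 29.4%, 25.7%, 7.12%, 11.7% and 8.28%. The arrays of the compared genotypes did not overlap for 30, 24, 19 and 23 of the 37 genes in the first 4 of these, against 57.5%, 53.9%, 36.1% and 40% of all genes.

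Genes of these pathways give bright signals in liver, and bright genes are called more often. Of the 37 genes, 29 had a mean of at least 10, a bound chosen after the values were seen. In OB-/- against wild-type, 34.5% of these 29 were called, against 26.4% of the 864 genes of that brightness. The shares were 13.8% and 3.82% in OB-/-/SHP-/- against OB-/-, and in OB-/-/SHP-/- against SHP-/- they were 17.2% and 14.9%. For the interaction they were 3.45% and 0.694%. The median difference of the set lay near that of all genes in every comparison. It was 0.04 against -0.01 in OB-/- against wild-type, 0.07 against 0.03 in OB-/-/SHP-/- against SHP-/-, -0.05 against -0.03 in SHP-/- against wild-type, and 0.07 against 0.01 in OB-/-/SHP-/- against OB-/-. The median size of the difference without its sign was 0.33 in OB-/- against wild-type, against 0.20 for all genes. It was 0.18 against 0.19 in OB-/-/SHP-/- against SHP-/-, 0.12 for both in SHP-/- against wild-type, 0.18 against 0.13 in OB-/-/SHP-/- against OB-/- and 0.24 against 0.17 in the interaction.

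**Figure D1:**
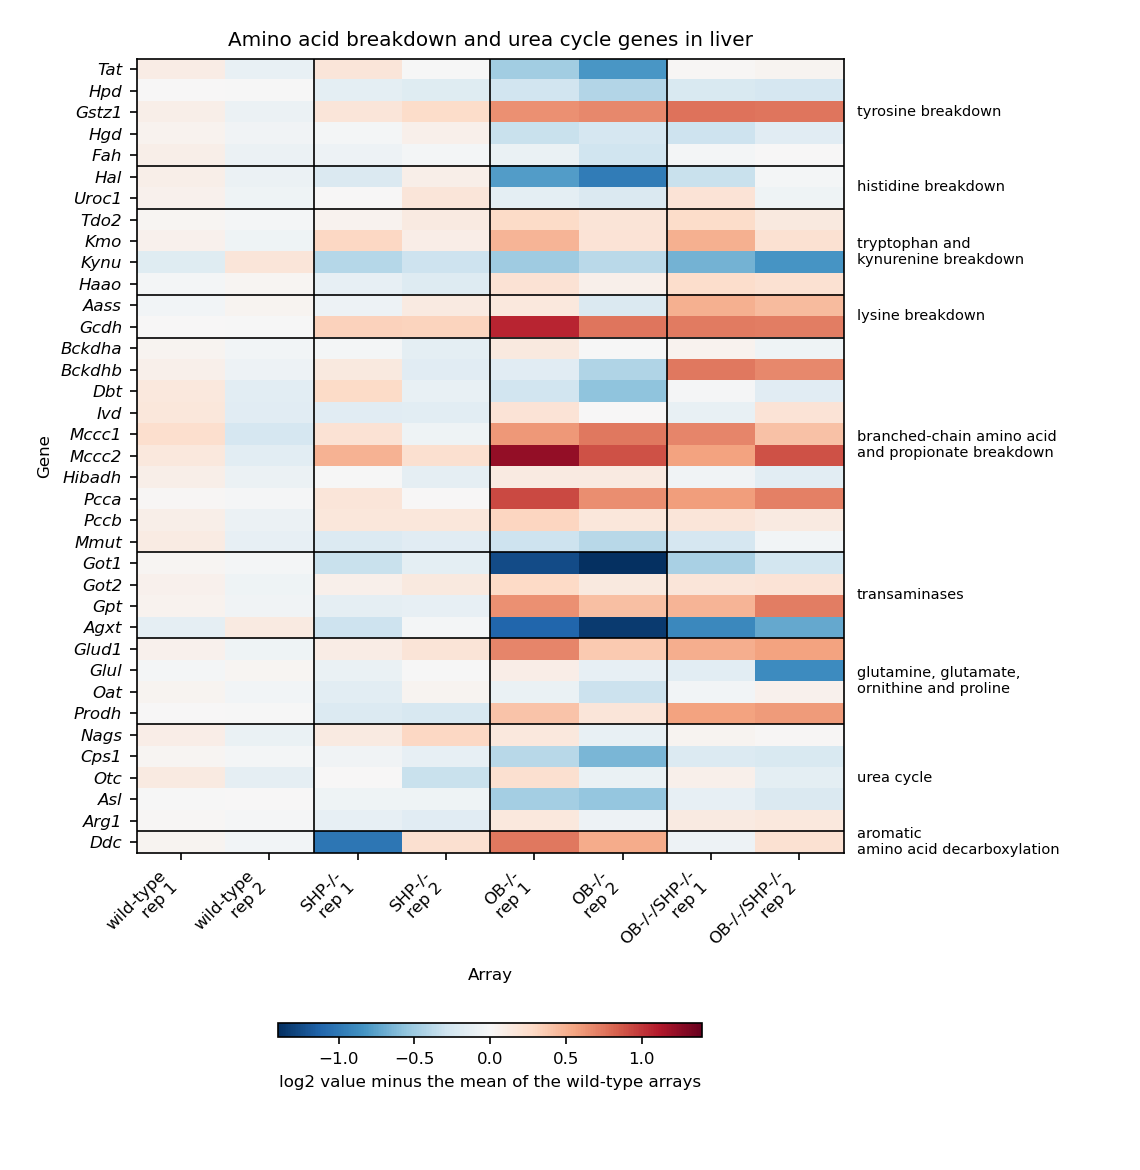
Each row is 1 of the 37 measured genes, grouped by role, and each column 1 array, coloured by the log2 value minus the mean of both wild-type arrays. The darkest blue cells are those of Got1 and Agxt in OB-/-, and the OB-/-/SHP-/- columns of Got1, Hal and Tat return towards the colour of wild-type.

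The order of the arrays gives the same data without a threshold. Both OB-/- arrays lay below all 6 other arrays for 12 of the 37 genes, or 32.4%, against 8.17% of all genes. These were Tat, Hpd, Fah, Hal, Uroc1, Bckdhb, Dbt, Mmut, Got1, Agxt, Cps1 and Asl. The share depends on the probe set used, and no share of this order was taken among genes of like brightness. The other probe set of Uroc1, at 9.59 and 10.17 in OB-/-, did not place both OB-/- arrays lowest. Nor did 1 of Mmut, at 9.63 and 9.53, while a dim probe set of Mmut did. The OB-/- arrays lay above all others for 4 genes, Gcdh, Mccc2, Hibadh and Ddc, or 10.8%, against 7.9%. Both OB-/-/SHP-/- arrays were highest for Gstz1, Haao, Aass, Bckdhb and Prodh, or 13.5% against 7.31% of all genes, and lowest for Kynu and Glul, or 5.41% against 5.93%. Wild-type was highest for Hpd, Kynu, Got1, Cps1 and Asl, or 13.5% against 7.97%, and lowest for 8 genes, Gstz1, Tdo2, Kmo, Gcdh, Mccc2, Pccb, Got2 and Glud1, or 21.6% against 6.53%. SHP-/- was highest for 0 genes, against 3.47% of all genes, and lowest for Haao, Gpt, Prodh and Arg1, or 10.8% against 5.98%. For 11 genes, or 29.7%, all 4 leptin-null arrays lay above all 4 leptin-intact arrays, against 11.9% of all genes, and for 5 genes, Hpd, Hgd, Agxt, Cps1 and Asl, they lay below, which is 13.5% against 13.3%. Tdo2 is counted among the 11 and among the genes lowest in wild-type, but neither holds on its other probe set. That of Glud1 did not place wild-type lowest either.

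Got1, Hal, Tat and Bckdhb are the 4 genes that rose with SHP loss in leptin-null liver, and their promoters are shown because these genes moved together there. Each sequence runs 5′ to 3′ on the strand of the gene, from 250 bases before the start site through 50 bases from it, in RefSeq's table for GRCm38.p6. Capitals mark matches on either strand to the motifs of C/EBP, of the TATA box and of NF-Y, whose letters are given with their counts.
Got1, chr19:43524556-43524855, minus strand: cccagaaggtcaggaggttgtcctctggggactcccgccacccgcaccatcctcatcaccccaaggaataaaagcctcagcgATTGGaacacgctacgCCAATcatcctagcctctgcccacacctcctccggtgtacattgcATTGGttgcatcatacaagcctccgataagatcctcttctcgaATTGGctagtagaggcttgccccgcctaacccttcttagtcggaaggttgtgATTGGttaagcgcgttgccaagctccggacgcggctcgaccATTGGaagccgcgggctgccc
Hal, chr10:93488518-93488817, plus strand: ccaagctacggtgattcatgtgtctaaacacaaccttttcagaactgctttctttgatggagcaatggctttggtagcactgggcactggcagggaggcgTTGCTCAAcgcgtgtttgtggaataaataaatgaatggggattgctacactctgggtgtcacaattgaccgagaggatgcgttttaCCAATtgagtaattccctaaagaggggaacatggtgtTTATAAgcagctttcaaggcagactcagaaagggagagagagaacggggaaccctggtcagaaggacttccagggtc
Tat, chr8:109990186-109990485, plus strand: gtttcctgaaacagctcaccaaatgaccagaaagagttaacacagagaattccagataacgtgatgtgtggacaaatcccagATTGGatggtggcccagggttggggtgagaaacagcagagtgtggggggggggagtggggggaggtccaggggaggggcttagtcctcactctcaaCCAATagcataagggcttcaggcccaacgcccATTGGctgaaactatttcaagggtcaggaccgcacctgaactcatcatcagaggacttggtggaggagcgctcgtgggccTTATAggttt
Bckdhb, chr9:83924887-83925186, plus strand: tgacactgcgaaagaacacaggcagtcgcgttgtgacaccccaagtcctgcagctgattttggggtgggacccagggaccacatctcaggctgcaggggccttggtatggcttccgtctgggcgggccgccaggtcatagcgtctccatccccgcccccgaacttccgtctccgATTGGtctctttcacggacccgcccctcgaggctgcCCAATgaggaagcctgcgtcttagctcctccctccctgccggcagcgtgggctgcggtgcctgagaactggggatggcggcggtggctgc

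The RefSeq table held an entry for 30 of the genes, with 34 promoters among them. Bckdhb had a further start site, with 1 CCAAT match. CCAAT, the letters bound by the general factor NF-Y and shown as ATTGG where the match is on the opposite strand, occurred 6 times in the Got1 promoter, 3 times in that of Tat, 2 times in that of Bckdhb and 1 time in that of Hal. It was present in 61.8% of the 34 promoters and in 37.4% of all 32851 promoters of the same length. TTGCNNAA, a motif of the C/EBP factors that drive many hepatocyte genes, occurred in the Hal promoter, with its first base at -150 from the start site. It was present in 14.7% of the 34 promoters, those of Aass, Ddc, Gcdh, Hal and Hgd, and in 10.8% of all. TATAA stood in 17.6% of the 34 and in 24.9% of all, and the pair of TATAA matches in Hal, on opposite strands, overlap each other. These matches and those of CCAAT were added to the search after the sequences had been seen. The full cAMP response element TGACGTCA, the site CAAGGTCA of LRH-1, a nuclear receptor that SHP represses, and the HNF4 site CAAAGTCCA were in none of the 34, against 1.79%, 1.56% and 0.475% of all promoters. The forkhead motif TGTTTAC was in 2.94% of the 34, in Hibadh alone, against 3.65% of all. The full glucocorticoid response element was in none of the 34 and in 0.00913% of all. All motifs were searched on both strands. A match describes letters in this window and not a bound site.

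Among the 4 measured transaminases, Got1 and Agxt fell with leptin loss and Gpt rose. Got1, the cytosolic aspartate aminotransferase, read 12.43 and 12.37 on the wild-type arrays, 12.09 and 12.27 on those of SHP-/-, 11.15 and 10.99 on those of OB-/- and 11.94 and 12.14 on those of OB-/-/SHP-/-. Both OB-/- arrays stood below every other array, and the OB-/-/SHP-/- arrays overlapped those of SHP-/-. Leptin loss with SHP present lowered Got1 2.51-fold: it fell by 1.33 ± 0.14 (limma adjusted p = 0.00013). It rose by 0.97 ± 0.14 in OB-/-/SHP-/- against OB-/- (limma adjusted p = 0.00441), which shares the OB-/- arrays with the fall. Leptin loss without SHP left it at -0.13 ± 0.14 (limma adjusted p = 0.604), and SHP loss in leptin-intact liver at -0.22 ± 0.14. The interaction was 1.19 ± 0.20 (limma adjusted p = 0.0212). The fall was called with any array left out, with differences of -1.41 to -1.25. The rise was lost without OB-/- replicate 2 (0.89, limma adjusted p = 0.0717). The interaction was lost without any 1 of 6 arrays, all but SHP-/- replicate 2 and OB-/-/SHP-/- replicate 1, with values of 1.09 to 1.27 over these 6 and limma adjusted p up to 0.142.

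Agxt, the peroxisomal enzyme that turns glyoxylate into glycine, read 11.38 and 11.63 on the wild-type arrays, 11.22 and 11.48 on those of SHP-/-, 10.40 and 10.17 on those of OB-/- and 10.61 and 10.80 on those of OB-/-/SHP-/-. The 4 leptin-null arrays lay below all 4 leptin-intact arrays, lowest in OB-/-. Agxt fell by 1.22 ± 0.16 in OB-/- against wild-type (limma adjusted p = 0.00046), a call kept whichever array was dropped. In the absence of SHP it fell by 0.65 ± 0.16 (limma adjusted p = 0.0261), lost without SHP-/- replicate 2 or either OB-/-/SHP-/- array (limma adjusted p up to 0.156). The interaction of 0.58 did not pass (limma adjusted p = 0.493).

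Gpt, the alanine aminotransferase of the glucose-alanine cycle, read 11.19 and 11.10 on the wild-type arrays, 11.02 and 11.03 on those of SHP-/-, 11.78 and 11.57 on those of OB-/- and 11.62 and 11.86 on those of OB-/-/SHP-/-. All leptin-null arrays were above all leptin-intact arrays. It rose by 0.53 ± 0.14 with SHP present (limma adjusted p = 0.0272) and by 0.72 ± 0.14 without it (limma adjusted p = 0.01). The first call was lost without any 1 of its 4 arrays (limma adjusted p up to 0.182) and the other without OB-/-/SHP-/- replicate 2 (limma adjusted p = 0.0758). Got2, the mitochondrial aspartate aminotransferase, differed by 0.21 in OB-/- against wild-type on its brighter probe set, which did not pass (limma adjusted p = 0.336). Its other probe set read 10.57 and 10.21 on the wild-type arrays, 10.96 and 11.04 on those of SHP-/-, 11.51 and 11.46 on those of OB-/- and 11.24 and 11.49 on those of OB-/-/SHP-/-. On that probe set Got2 rose by 1.09 ± 0.16 in OB-/- against wild-type (limma adjusted p = 0.00108), so the probe sets of this gene disagree in size and in the call.

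In tyrosine breakdown, leptin loss lowered the first enzyme and raised the fourth. Tat, tyrosine aminotransferase, a classical target of glucocorticoids and glucagon, read 12.63 and 12.41 on the wild-type arrays, 12.69 and 12.51 on those of SHP-/-, 12.03 and 11.71 on those of OB-/- and 12.54 and 12.55 on those of OB-/-/SHP-/-. The OB-/- arrays lay below the other 6, which overlapped among themselves. Tat fell by 0.65 ± 0.15 in OB-/- against wild-type (limma adjusted p = 0.0144), lost without wild-type replicate 1 or OB-/- replicate 2 (limma adjusted p up to 0.133). It rose by 0.68 ± 0.15 in OB-/-/SHP-/- against OB-/- (limma adjusted p = 0.0489), a call at the edge of the threshold. That call was lost without any 1 array of wild-type, OB-/- or OB-/-/SHP-/- (limma adjusted p up to 0.431), and also with equal array medians, without probe sets ending in x_at or s_at and in a fit to the 4 arrays compared (0.0508, 0.0507 and 0.0681). Leptin loss without SHP left Tat at -0.06 (limma adjusted p = 0.856).

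Gstz1, the maleylacetoacetate isomerase, read 10.90 and 10.74 on the wild-type arrays, 10.99 and 11.07 on those of SHP-/-, 11.46 and 11.49 on those of OB-/- and 11.58 and 11.57 on those of OB-/-/SHP-/-. The leptin-null arrays were all higher than the leptin-intact ones. It rose by 0.66 ± 0.13 with SHP present (limma adjusted p = 0.00578), kept with any array left out. It rose by 0.54 ± 0.13 without SHP (limma adjusted p = 0.0231), lost without any 1 of the 4 arrays compared (limma adjusted p up to 0.111). The remaining enzymes of the pathway, Hpd, which makes homogentisate, Hgd, which opens its ring, and Fah, the last step, passed in no comparison. Their differences in OB-/- against wild-type were -0.34, -0.27 and -0.18. Hpd was highest on both wild-type arrays, at 13.41 and 13.39, against 12.99 to 13.27 on the others, and with an intensity trend in limma's prior it fell in OB-/- (limma adjusted p = 0.0146).

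Of the pair of histidine enzymes, the first step changed and the next did not pass. Hal, histidine ammonia-lyase, read 11.46 and 11.29 on the wild-type arrays, 11.17 and 11.45 on those of SHP-/-, 10.58 and 10.39 on those of OB-/- and 11.06 and 11.35 on those of OB-/-/SHP-/-. Only the OB-/- arrays were low, and the other 3 genotypes overlapped. Hal fell by 0.88 ± 0.16 in OB-/- against wild-type (limma adjusted p = 0.00358), kept with any array left out. It rose by 0.72 ± 0.16 in OB-/-/SHP-/- against OB-/- (limma adjusted p = 0.045). That rise was lost without any 1 array of wild-type or OB-/-, or without OB-/-/SHP-/- replicate 2 (limma adjusted p up to 0.385), and in a fit to the 4 arrays compared (0.0571). Leptin loss without SHP gave -0.11 (limma adjusted p = 0.727) and the interaction 0.78 (limma adjusted p = 0.261). Uroc1, urocanate hydratase, differed by at most 0.24 in size in the 4 comparisons of genotypes. Its probe sets disagreed in sign. The brighter one gave -0.17 in OB-/- against wild-type and 0.24 in OB-/-/SHP-/- against OB-/-, and the other 0.02 and -0.22.

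The 4 enzymes of tryptophan and kynurenine breakdown passed in no comparison, though other settings called 2 of them. Tdo2, the liver's tryptophan dioxygenase, read 12.48 and 12.53 in wild-type, 12.55 and 12.63 in SHP-/- and 12.64 to 12.77 in leptin-null liver, a difference of 0.22 in OB-/- against wild-type. Its other probe set went the other way, at 11.38 and 11.48 in wild-type and 11.00 to 11.27 in leptin-null liver. The difference there was -0.30 in OB-/- against wild-type (limma adjusted p = 0.186), so the probe sets of Tdo2 disagree in sign. Kynu, kynureninase, was dim, at 3.80 to 4.79, and its differences from wild-type were -0.44 in OB-/- (limma adjusted p = 0.0737) and -0.35 in SHP-/- (limma adjusted p = 0.678). With quantile normalisation it fell in OB-/- (-0.49, limma adjusted p = 0.0467). Kmo differed by 0.33 and Haao by 0.13 in OB-/- against wild-type. Haao, which forms the precursor of quinolinate, was at 11.89 and 11.93 in OB-/-/SHP-/- against 11.50 and 11.57 in SHP-/-, groups that do not overlap, with a difference of 0.37 (limma adjusted p = 0.0921) that passed with an intensity trend in limma's prior (0.0257).

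In lysine breakdown Gcdh, the mitochondrial glutaryl-CoA dehydrogenase, read 9.92 and 9.90 on the wild-type arrays, 10.23 on both SHP-/- arrays, 10.97 and 10.66 on those of OB-/- and 10.64 and 10.63 on those of OB-/-/SHP-/-. Wild-type was lowest, SHP-/- intermediate and the leptin-null genotypes highest, with no overlap between these 3 levels. Gcdh rose by 0.91 ± 0.14 in OB-/- against wild-type (limma adjusted p = 0.00143), kept with any array left out. Its difference without SHP, 0.41 ± 0.14, did not pass (limma adjusted p = 0.0931), and neither did that of SHP-/- against wild-type, 0.32, one of the 2 lowest p-values of the set in that comparison. Aass, which starts lysine breakdown in mitochondria, read 11.30 and 11.25 in OB-/-/SHP-/- and 10.60 to 10.96 on the other arrays, and passed in no comparison (0.50, limma adjusted p = 0.164 against OB-/-). With an intensity trend in limma's prior, the differences of Aass (0.44) and of Gcdh (0.41) in OB-/-/SHP-/- against SHP-/- passed (limma adjusted p = 0.0429 and 0.046).

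**Figure D2:**
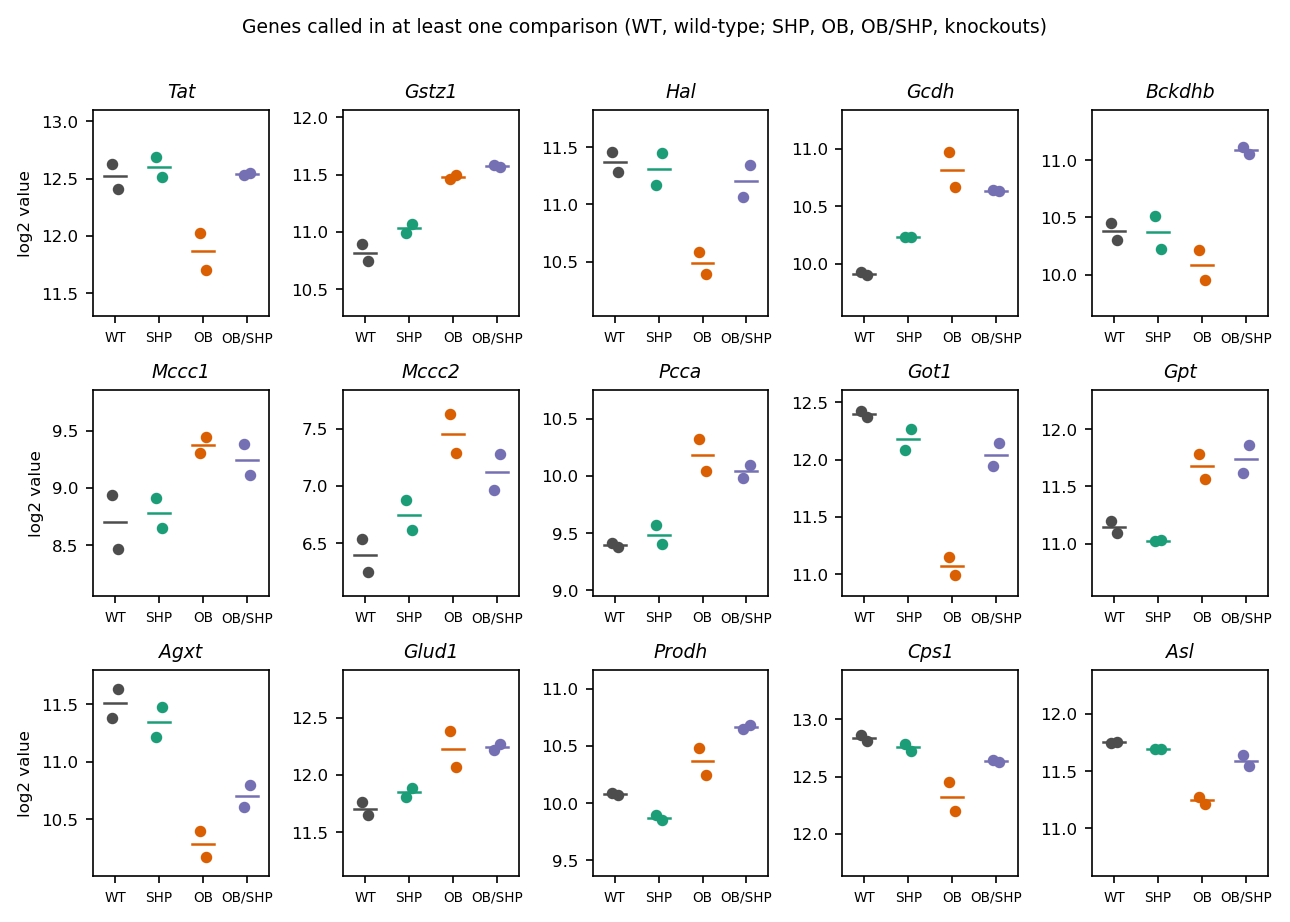
Points are the log2 values of the genes called in at least 1 comparison, 1 panel per gene and 2 arrays per genotype, and the bars are the means of the genotypes. Got1, Hal and Tat dip in OB-/- alone, Bckdhb stands highest in OB-/-/SHP-/-, and Agxt, Gpt and Gstz1 differ between leptin-intact and leptin-null liver.

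Of the 10 branched-chain and propionate enzymes, 3 rose in OB-/- against wild-type, all subunits of carboxylases, and 7 did not pass. Without SHP 2 rose, Pcca and Bckdhb, and 8 did not pass. Mccc2 and Mccc1 encode the subunits of methylcrotonyl-CoA carboxylase, a step of leucine breakdown. Mccc2 read 6.54 and 6.25 on the wild-type arrays, 6.88 and 6.62 on those of SHP-/-, 7.63 and 7.29 on those of OB-/- and 6.96 and 7.28 on those of OB-/-/SHP-/-. Both OB-/- arrays exceeded all others, and all OB-/-/SHP-/- arrays exceeded all leptin-intact arrays. Mccc2 rose by 1.06 ± 0.18 in OB-/- against wild-type (limma adjusted p = 0.00229), kept with any array left out. Mccc1, at 8.94 and 8.47 in wild-type and 9.31 and 9.44 in OB-/-, rose by 0.67 ± 0.18 (limma adjusted p = 0.0257), lost without wild-type replicate 2 or either OB-/- array (limma adjusted p up to 0.199). Without SHP the differences were 0.37 for Mccc2 (limma adjusted p = 0.217) and 0.47 for Mccc1 (limma adjusted p = 0.127), which did not pass.

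Pcca, the biotin-carrying subunit of propionyl-CoA carboxylase, read 9.41 and 9.38 on the wild-type arrays, 9.57 and 9.41 on those of SHP-/-, 10.32 and 10.04 on those of OB-/- and 9.98 and 10.10 on those of OB-/-/SHP-/-. The leptin-null arrays were all higher than the leptin-intact ones. It rose by 0.79 ± 0.14 with SHP present (limma adjusted p = 0.00379), kept with any array left out. It rose by 0.55 ± 0.14 without SHP (limma adjusted p = 0.0338), lost without any 1 array of wild-type, SHP-/- or OB-/-/SHP-/- (limma adjusted p up to 0.173). Its partner Pccb, at 9.33 to 9.71 on all arrays, differed by 0.23 in OB-/- against wild-type and passed in no comparison (limma adjusted p = 0.282 there).

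Bckdhb, the E1 beta subunit of the branched-chain ketoacid dehydrogenase, was set apart in the double knockout. It read 10.45 and 10.30 on the wild-type arrays, 10.51 and 10.22 on those of SHP-/-, 10.21 and 9.95 on those of OB-/- and 11.12 and 11.05 on those of OB-/-/SHP-/-. Both OB-/-/SHP-/- arrays exceeded every other array, and both OB-/- arrays were below every other array. Bckdhb rose by 1.00 ± 0.15 against OB-/- (limma adjusted p = 0.00583), lost without OB-/- replicate 2 (0.87, limma adjusted p = 0.0905). It rose by 0.72 ± 0.15 against SHP-/- (limma adjusted p = 0.0144), lost without SHP-/- replicate 2 or OB-/-/SHP-/- replicate 2 (limma adjusted p up to 0.0988). These comparisons share the OB-/-/SHP-/- arrays. The interaction of 1.01 ± 0.22 did not pass (limma adjusted p = 0.0864), though it did with an intensity trend in limma's prior (0.0218). The other subunits of the complex did not pass. Bckdha, E1 alpha, lay at 10.44 to 10.71 on all arrays, and Dbt, the E2 core, differed by -0.41 in OB-/- against wild-type (limma adjusted p = 0.138). Ivd, which acts on isovaleryl-CoA from leucine, Hibadh, of valine breakdown, and Mmut also passed in no comparison. Hibadh did on its other probe set, where it rose by 0.48 ± 0.15 in OB-/- against wild-type (limma adjusted p = 0.0473). In that comparison Ivd differed by 0.10 on its brighter probe set and by -0.29 on the other. Mmut differed by -0.34 on its brightest probe set and by 0.10 and -0.31 on the others, and none of these passed.

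Among the enzymes of glutamate, glutamine, ornithine and proline, 1 of 4 rose in each leptin comparison, Glud1 with SHP present and Prodh without it, and the interaction passed for neither. Prodh, proline dehydrogenase, read 10.09 and 10.07 on the wild-type arrays, 9.89 and 9.85 on those of SHP-/-, 10.48 and 10.25 on those of OB-/- and 10.65 and 10.68 on those of OB-/-/SHP-/-. The 4 genotypes did not overlap, in the order SHP-/-, wild-type, OB-/- and OB-/-/SHP-/- from low to high. Prodh rose by 0.79 ± 0.13 in OB-/-/SHP-/- against SHP-/- (limma adjusted p = 0.00409). This was the one call of that comparison kept with any array left out, while with SHP present the difference was 0.29 (limma adjusted p = 0.184), and the interaction, 0.51, did not pass (limma adjusted p = 0.467). Glud1, glutamate dehydrogenase, read 11.76 and 11.65 on the wild-type arrays, 11.81 and 11.89 on those of SHP-/-, 12.39 and 12.07 on those of OB-/- and 12.22 and 12.27 on those of OB-/-/SHP-/-. The leptin-null arrays were all higher. It rose by 0.52 ± 0.14 in OB-/- against wild-type (limma adjusted p = 0.0299), lost without either wild-type array or OB-/- replicate 1 (limma adjusted p up to 0.221) and on its other probe set (0.28, limma adjusted p = 0.168). Without SHP its difference was 0.40 ± 0.14 (limma adjusted p = 0.111), which passed with an intensity trend in limma's prior (0.0378), and its interaction was -0.13 (limma adjusted p = 0.935).

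Glul, glutamine synthetase, which is confined to the last hepatocytes before the central vein, lay at 10.69 to 10.90 on all arrays except both OB-/-/SHP-/- arrays, at 10.66 and 9.93. Its difference from OB-/- of -0.50 ± 0.20 did not pass (limma adjusted p = 0.356). It passed without OB-/-/SHP-/- replicate 1, which leaves the low array to stand for the genotype (-0.86, limma adjusted p = 0.0339). Its other probe set read 10.18 and 10.17 in OB-/-/SHP-/- and 10.37 to 10.70 elsewhere. Oat, ornithine aminotransferase, passed in no comparison.

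Among the 5 measured urea cycle genes, Cps1 and Asl fell with leptin loss and Nags, Otc and Arg1 did not pass. Cps1, the mitochondrial carbamoyl phosphate synthetase at which ammonia enters the cycle, read 12.87 and 12.81 on the wild-type arrays, 12.79 and 12.73 on those of SHP-/-, 12.45 and 12.20 on those of OB-/- and 12.64 and 12.63 on those of OB-/-/SHP-/-. The leptin-null arrays were all lower, lowest in OB-/-. Leptin loss with SHP present took it down: it fell by 0.51 ± 0.14 (limma adjusted p = 0.025), lost without either wild-type array or OB-/- replicate 2 (limma adjusted p up to 0.187). Asl, argininosuccinate lyase, read 11.75 and 11.76 on the wild-type arrays, 11.70 and 11.69 on those of SHP-/-, 11.28 and 11.21 on those of OB-/- and 11.64 and 11.55 on those of OB-/-/SHP-/-. It fell by 0.51 ± 0.13 (limma adjusted p = 0.0191), lost without any 1 of the 4 arrays compared (limma adjusted p up to 0.112). The OB-/- arrays were the lowest for both genes, yet the differences of OB-/-/SHP-/- from OB-/-, 0.31 for Cps1 and 0.35 for Asl, did not pass (limma adjusted p = 0.402 and 0.271). Leptin loss without SHP gave -0.12 for Cps1 and -0.10 for Asl. Nags, which makes the activator of Cps1, differed by 0.02, Otc by 0.07 and Arg1, the arginase that releases urea, by 0.04 in OB-/- against wild-type. Further probe sets of Otc differed by -0.54 and 0.15 there, and neither passed (limma adjusted p = 0.074 and 0.556).

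Ddc, the aromatic amino acid decarboxylase, had the widest gap between replicates, at 7.68 and 8.91 in SHP-/-. On the wild-type arrays it read 8.73 and 8.65, on those of OB-/- 9.43 and 9.21, and on those of OB-/-/SHP-/- 8.62 and 8.90. Its difference of 0.62 ± 0.30 in OB-/- against wild-type did not pass over all 8 arrays (limma adjusted p = 0.194). It passed in a fit to those 4 arrays (limma adjusted p = 0.00681) and with either SHP-/- array left out, which removes that gap from the shared estimate of the spread. With SHP-/- replicate 2 left out, the low array stands for SHP-/- and Ddc fell by 1.02 against wild-type (limma adjusted p = 0.0325).

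The effect of leptin loss with SHP present and the effect without it use no array in common. Across the 37 genes their differences correlated at r = 0.683 and rho = 0.742, a description over genes that share the same arrays within each comparison. Gstz1, Pcca and Gpt rose and Agxt fell in both, which is 30.8% of the 13 genes called with SHP present and 66.7% of the 6 called without it. Got1, Hal and Tat fell with SHP present by 1.33, 0.88 and 0.65, and their differences without SHP were -0.13, -0.11 and -0.06. The test of this gap is the interaction, which Got1 passed and Hal and Tat did not. The differences by SHP loss in leptin-intact and in leptin-null liver, which also share no array, correlated at r = -0.07 and rho = -0.16. In leptin-intact liver no difference of the set exceeded 0.40 in size, and the lowest limma adjusted p was 0.678.

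**Figure D3:**
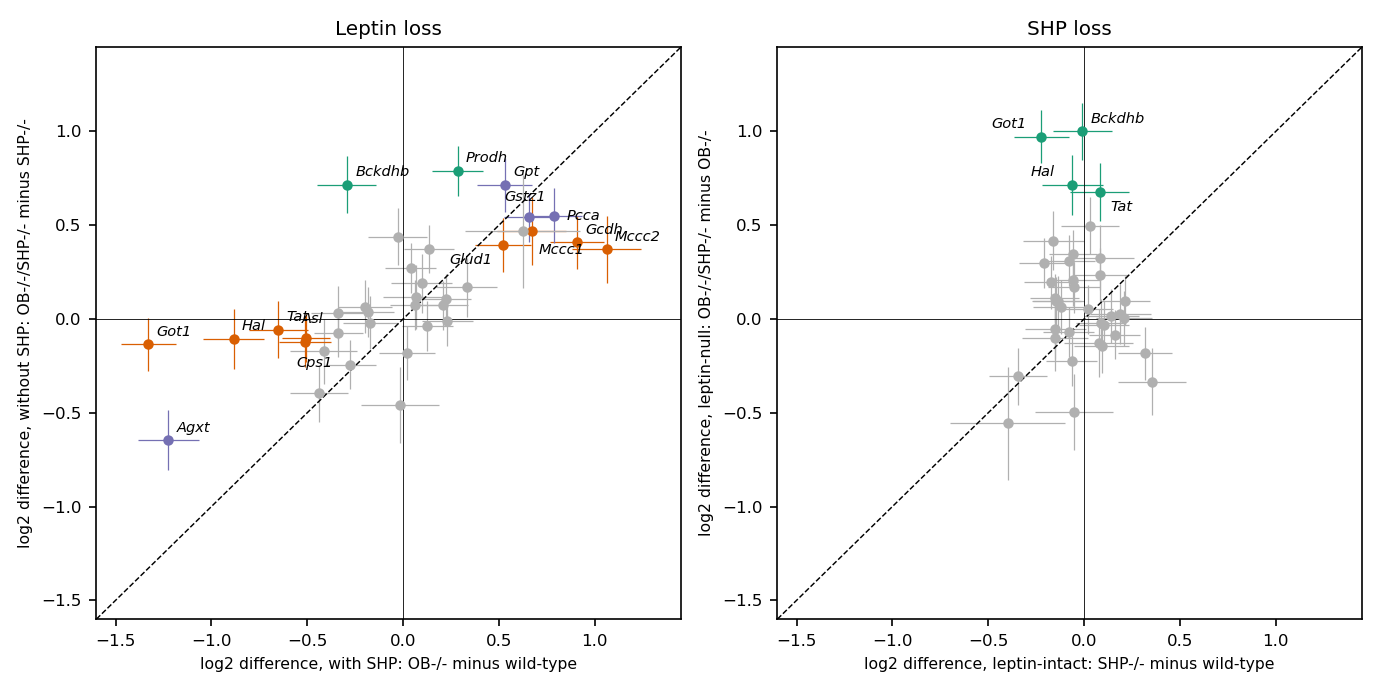
Each point is a gene with its log2 difference ± SE in a pair of comparisons that share no array, leptin loss with and without SHP on the left and SHP loss in leptin-intact and leptin-null liver on the right. Orange points were called on the horizontal axis only, green points on the vertical axis only, violet points on both and grey points on neither, and the dashed line marks equal differences. Got1, at -1.33 and -0.13, lies farthest from that line on the left among the genes that fell.

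Without OB-/- replicate 1, whose Xist signal stood apart, 4 genes rose and 5 fell in OB-/- against wild-type. Got1 fell by 1.41, Agxt by 1.34, Hal by 0.98, Tat by 0.81 and Cps1 by 0.64, each farther than with both arrays. Mccc2 rose by 0.89, Gcdh by 0.75, Gstz1 by 0.68 and Pcca by 0.65. Mccc1 (0.74), Gpt (0.42), Glud1 (0.36) and Asl (-0.54) no longer passed, with limma adjusted p of 0.0738 to 0.221. In OB-/-/SHP-/- against OB-/-, Bckdhb rose by 1.13 and Got1 by 1.05, and Tat (0.84, limma adjusted p = 0.0831) and Hal (0.81, limma adjusted p = 0.137) no longer passed. The interaction of Got1 was 1.27 (limma adjusted p = 0.0728). The shares moved with these calls: 24.3% of the 37 genes were called in OB-/- against wild-type, against 8.56% of all genes, and 5.41% in OB-/-/SHP-/- against OB-/-, against 0.783%. Among genes with a mean of at least 10 the shares were 24.1% and 15.2% in the first and 6.90% and 1.62% in the other. The median difference of the set in OB-/- against wild-type was -0.091, of the opposite sign. The remaining OB-/- array lay below all 6 others for 15 of the genes, or 40.5%, against 17.3% of all genes, and above them for 5, or 13.5%, against 16.6%. Both leptin-loss effects correlated at r = 0.658 and rho = 0.705, and both SHP-loss effects at r = -0.031 and rho = -0.17. These shares, orders and correlations, and the further gene lists, were run without the array only after the data had been seen. On that array most of the genes read higher than on OB-/- replicate 2, and the median gap between replicates over the set was 0.21 in OB-/-, against 0.11 in each of the other 3 genotypes and 0.15 over all genes in OB-/-.

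**Figure D4:**
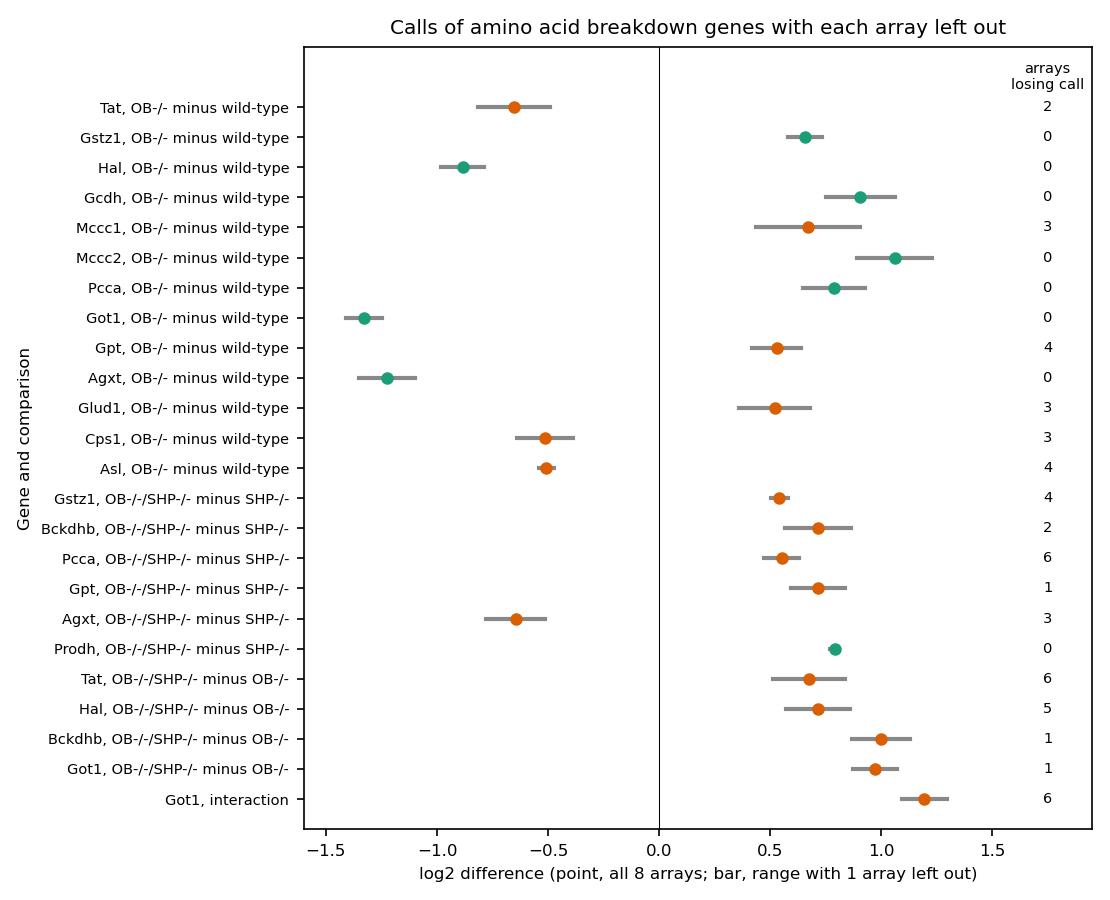
Points are the log2 differences of the called genes in each comparison, and lines give their range when each array was left out in turn. Green marks a call kept with any array left out and orange a call lost at least once. Of 13 calls in OB-/- against wild-type 7 were kept, of 6 in OB-/-/SHP-/- against SHP-/- 1 was kept, and of 4 in OB-/-/SHP-/- against OB-/- 0 were kept.

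Other cell types could add RNA to these livers, and the markers of some moved with genotype. Pancreatic acinar markers, 11 measured of 13 listed, of which 8 lay below the median of all values, had a log2 summed signal of 10.14 to 10.53 in OB-/- and 8.66 to 8.92 in the other genotypes. The sum of this list was thus high in the genotype in which Got1, Hal and Tat were low. Of the 11 markers, 6 rose and 1 fell in OB-/- against wild-type, where 7.58% of all genes rose and 9.36% fell. Kupffer cell and macrophage markers, 8 of 8 measured with 1 below that median, gave 9.97 to 9.98 for wild-type, 10.35 to 11.19 for SHP-/-, 11.47 to 11.52 for OB-/- and 11.23 to 11.52 for OB-/-/SHP-/-. Endothelial markers, 6 of 6 measured with 2 below it, gave 9.37 to 9.84, 9.47 to 9.74, 10.09 to 10.11 and 9.74 to 9.92 in the same order. Stellate cell and fibroblast markers, 7 of 7 measured with 3 below it, gave 10.13 to 10.16, 10.35 to 10.55, 10.69 to 10.70 and 10.62 to 10.81. Small intestine markers, 6 of 6 with 5 below it, gave 10.30 to 10.37, 9.85 to 10.30, 10.99 to 11.09 and 10.83 to 11.29. The summed signals of these 4 lists were all higher in OB-/- than in wild-type. Taken gene by gene in that comparison, 7 of 8 Kupffer cell and macrophage markers rose (median difference 1.28), and 3 of 6 endothelial markers (0.69). So did 3 of 7 stellate cell and fibroblast markers (0.48) and 1 of 6 small intestine markers (0.04), where 7.58% of all genes rose. The small intestine list as a whole thus hardly moved. Adipocyte markers, 3 of 5 and all 3 below it, gave 5.63 to 5.79, 5.61 to 5.63, 6.10 to 6.30 and 6.28 to 6.46. Erythroid markers, 2 of 4 with 1 below it, gave 9.16 to 9.46, 8.74 to 9.09, 9.03 to 9.13 and 8.13 to 8.29, lowest in the double knockout. Kidney tubule markers, 7 of 7 and all below it, lay at 7.01 to 7.37, lymphocyte markers, 5 of 6 with 4 below it, at 7.07 to 7.5, and cholangiocyte markers, 4 of 5 and all below it, at 6.32 to 6.62 over all arrays. Their part in the results was not tested. In these bulk samples, fewer hepatocytes and less RNA per hepatocyte cannot be told apart.

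The other enzymes of amino acid breakdown, a further 37 measured of 48 listed, gave calls in both directions with leptin loss. In OB-/- against wild-type 6 rose, 3 fell and 28 did not pass, where 7.58% of all genes rose and 9.36% fell, with a median of 0.27 against -0.01 for all genes. Gpt2, the mitochondrial alanine aminotransferase and partner of Gpt, read 10.65 and 10.46 on the wild-type arrays, 11.27 and 11.36 on those of SHP-/-, 11.69 and 11.88 on those of OB-/- and 11.63 and 11.33 on those of OB-/-/SHP-/-. Wild-type stood below all other arrays, and Gpt2 rose by 1.23 ± 0.15 in OB-/- against it (limma adjusted p = 0.000329). Hsd17b10, of isoleucine breakdown, rose by 0.60 with SHP present and 0.59 without it. Dmgdh, which oxidises dimethylglycine, rose by 0.50 and 0.59, and by 0.70 in OB-/-/SHP-/- against OB-/- (limma adjusted p = 0.0255). Ido2, a further tryptophan-degrading dioxygenase, fell by 0.96 and by 0.82, and Afmid, which acts next in that pathway, fell by 0.54 in OB-/- against wild-type. Leptin loss without SHP raised 2 and lowered 1, where 4.95% of all genes rose and 5.62% fell. In OB-/-/SHP-/- against OB-/- 1 rose and 0 fell, where 1.26% of all genes rose and 0.88% fell. In SHP-/- against wild-type and in the interaction limma called 0, with 3 and 1 at an unadjusted p below 0.05, against 7.12% and 8.28% of all genes. Without OB-/- replicate 1, the median in OB-/- against wild-type was 0.097, against -0.007 for all genes. Fewer of these enzymes passed than with both arrays, as was also true over all genes. Gpt2 (1.33) and Hsd17b10 (0.64) still passed, and Ido2 (-0.96), Dmgdh (0.48) and Afmid (-0.53) did not, with limma adjusted p of 0.0782 to 0.137. The rise of Dmgdh in OB-/-/SHP-/- against OB-/- did not pass either (0.72, limma adjusted p = 0.143).

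Transporters bring amino acids and ammonia into and out of liver cells and mitochondria. Of 14 measured of 17 listed, 1 rose, 5 fell and 8 did not pass in OB-/- against wild-type, with a median of -0.47, and 1 rose, 2 fell and 11 did not pass in OB-/-/SHP-/- against SHP-/-, with a median of -0.17. Of all genes, 7.58% rose and 9.36% fell in the first of these and 4.95% and 5.62% in the other. Slc3a1, the heavy subunit of the cystine and basic amino acid transporter, read 8.97 and 9.54 on the wild-type arrays, 8.53 and 9.50 on those of SHP-/-, 7.13 and 7.21 on those of OB-/- and 7.16 and 6.42 on those of OB-/-/SHP-/-. It fell by 2.09 ± 0.31 with SHP present (limma adjusted p = 0.00116) and fell by 2.22 ± 0.31 without it (limma adjusted p = 0.0013). The leptin-null arrays were more than 1 unit below all leptin-intact arrays. Rhbg, an ammonia channel of pericentral hepatocytes, read 7.30 and 7.03 on the wild-type arrays, 7.96 and 7.73 on those of SHP-/-, 8.68 on both OB-/- arrays and 9.28 and 9.25 on those of OB-/-/SHP-/-. It rose by 1.51 ± 0.15 with SHP present (limma adjusted p = 6.11e-05) and by 1.43 ± 0.15 without it (limma adjusted p = 0.000133). Slc38a2, a neutral amino acid transporter, fell by 1.27, Slc25a22, a mitochondrial glutamate carrier, by 0.95, and Slc1a2, a glutamate transporter, by 0.74, in OB-/- against wild-type. In each of the 3 comparisons left, limma called 0, with 1 at an unadjusted p below 0.05 in SHP-/- against wild-type, 4 in OB-/-/SHP-/- against OB-/- and 3 in the interaction. Of all genes, 7.12%, 11.7% and 8.28% lay below that bound in the same order. Without OB-/- replicate 1, the median in OB-/- against wild-type was -0.52, against -0.007 for all genes. Fewer transporters passed than with both arrays, as was also true over all genes. Rhbg (1.52), Slc3a1 (-2.05), Slc25a22 (-1.16) and Slc38a2 (-1.56) still passed, and Slc1a2 (-0.77) did not.

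Regulators known to act on these enzymes were also measured, 20 of 22 listed. In OB-/- against wild-type 1 rose, 6 fell and 13 did not pass, where 7.58% of all genes rose and 9.36% fell, with a median of -0.35 against -0.01 for all genes. Ppargc1a, a coactivator of the fasting response, read 7.68 and 7.56 on the wild-type arrays, 7.36 and 6.98 on those of SHP-/-, 6.40 and 6.35 on those of OB-/- and 6.98 and 6.88 on those of OB-/-/SHP-/-. It was lowest in OB-/- and fell by 1.25 ± 0.15 against wild-type (limma adjusted p = 0.000327). Hnf4a, a hepatocyte nuclear receptor, fell by 0.76, Tsc22d3, a glucocorticoid target, by 0.65, and Atf4, of the amino acid response, by 0.60. Foxa2, a forkhead factor, fell by 0.80 with SHP present and by 0.78 without it. In that latter comparison 1 regulator rose and 3 fell, where 4.95% of all genes rose and 5.62% fell. SHP loss in leptin-null liver raised 1 and lowered 0, where 1.26% of all genes rose and 0.88% fell. In SHP-/- against wild-type and in the interaction limma called 0, with 4 and 2 at an unadjusted p below 0.05, against 7.12% and 8.28% of all genes. Without OB-/- replicate 1, the median in OB-/- against wild-type was -0.44, against -0.007 for all genes. Fewer regulators passed than with both arrays, as was also true over all genes. Ppargc1a (-1.27), Hnf4a (-0.73) and Foxa2 (-0.80) still passed, and Tsc22d3 (-0.57) and Atf4 (-0.59) did not, with limma adjusted p of 0.0703 and 0.0545. The call in OB-/-/SHP-/- against OB-/- was lost as well, and the median of the 20 regulators there was 0.27, against 0.01 for all genes.

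Genes that mark the portal and the central end of the liver lobule were counted because the urea cycle enzymes are mostly periportal and Glul is pericentral. Of 11 periportal genes measured of 12 listed, 2 rose, 2 fell and 7 did not pass in OB-/- against wild-type, with a median of 0.08 against -0.01 for all genes, of which 7.58% rose and 9.36% fell. Hsd17b6, of steroid metabolism, fell by 2.17, Pigr, an immunoglobulin receptor, fell by 0.64, and the apolipoprotein Apoa4 rose by 0.82. Of 13 pericentral genes measured of 14 listed, 0 rose, 6 fell and 7 did not pass, with a median of -0.48. Cyp1a2, a cytochrome P450 of drug metabolism, fell by 1.24, and Axin2, a target of Wnt signalling, by 0.99. In OB-/-/SHP-/- against OB-/- 1 periportal gene, the cytochrome P450 Cyp2f2, fell by 2.07 (limma adjusted p = 1.86e-05), and limma called 0 pericentral genes, with 5 at an unadjusted p below 0.05. Of all genes, 1.26% rose and 0.88% fell there, and 11.7% had an unadjusted p below 0.05. With leptin loss in the absence of SHP 1 periportal gene rose and 3 fell, and 1 pericentral gene rose and 5 fell, where 4.95% of all genes rose and 5.62% fell. SHP loss in leptin-intact liver gave 0 calls by limma in either list, with 4 of the 11 periportal and 7 of the 13 pericentral genes at an unadjusted p below 0.05, against 7.12% of all genes. Of all genes, the interaction was called higher for 0.355% and lower for 0.194%. In these lists it was called higher for the pericentral Cyp2c37 (1.27, limma adjusted p = 0.043) and lower for the periportal Cyp2f2 (-1.36, limma adjusted p = 0.0187). Without OB-/- replicate 1 neither interaction passed (1.38, limma adjusted p = 0.123, and -1.33, limma adjusted p = 0.121). In OB-/- against wild-type the medians were then 0.016 for the periportal and -0.60 for the pericentral genes, against -0.007 for all genes. Fewer genes of both lists passed than with both arrays, as was also true over all genes. Hsd17b6 at -2.37, Pigr at -0.69, Apoa4 at 0.86, Cyp1a2 at -1.30 and Axin2 at -1.02 were still called. Cyp2f2 fell by 2.03 in OB-/-/SHP-/- against OB-/- (limma adjusted p = 0.000958).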

How the data were processed

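Liver RNA of 4 mouse genotypes was measured on 8 Affymetrix arrays, and genotype and replicate number came from the sample titles. The deposited values are log2 expression values, and the submitters' processing notes name R 2.15.0. Log base, background correction and summarisation: not given in the sources used here. That the base is 2 was read from the range of 2.20 to 14.19, and since array medians lay within 5.45 to 5.56 they were used as deposited, without a filter or pseudocount. Of 22690 probe sets, 64 controls, 691 naming several genes and 1555 naming none were left out. Names came from the array annotation. Of the 20380 probe sets naming 1 gene, 20351 had a gene ID found in RefSeq's GRCm38.p6 table.

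A mean per genotype was fitted in limma 3.58.1 (R 4.3.3), with 4 residual and 7.16 prior degrees of freedom. Tests were two-sided, and the scripts were tested on simulated data. The median SE of a difference was 0.15, and the number of arrays limits the precision. The genes, lists and tests were chosen with earlier results of these data known. Array values were given for called genes and those set beside them, and up to 5 genes of each further list were named by smallest adjusted p. Alternatives were quantile normalisation, equal medians, a filter at 4.83, eBayes with trend or robust, other probe set rules, a 2-fold minimum, a block for the replicate number, a fit to only the 4 arrays of a comparison, and each array left out. Figures were drawn with matplotlib 3.10.9.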

Additional observations from a re-analysis of the deposited data

Results flagged for a closer look

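The effect of SHP loss on Got1 differed between leptin-null and leptin-intact liver. Its log2 difference was 0.97 in OB-/-/SHP-/- against OB-/- and -0.22 in SHP-/- against wild-type, and the interaction of 1.19 ± 0.20 passed limma's test (adjusted p = 0.0212). Without OB-/- replicate 1 it was 1.27 (adjusted p = 0.0728), and over all arrays left out in turn it lay between 1.09 and 1.30 with adjusted p of 0.021 to 0.142. Groups of 2 arrays are too small for a check of single outlying samples.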

How the results depend on the processing

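Over the 24 called differences and all alternatives run, 348 values kept the call, 82 lost it and 0 changed sign. The eBayes settings, the 2-fold minimum, the replicate block and the fit to the arrays compared leave the log2 difference itself as it was. In those settings no sign could change. With a 2-fold minimum, which drops smaller changes by construction, 1 gene rose and 2 fell in OB-/- against wild-type, 0 rose and 0 fell in OB-/-/SHP-/- against SHP-/-, and 1 rose in OB-/-/SHP-/- against OB-/-. Of all genes, 265 rose and 245 fell in the first of these, 167 and 151 in the next, and 74 rose in the last. In a fit to the 4 arrays compared, 3 rose and 0 fell in OB-/-/SHP-/- against SHP-/- and 2 rose in OB-/-/SHP-/- against OB-/-. Of all genes, 293 rose and 322 fell in the first of these, against 614 and 697 in the main fit. In the other 155 rose, against 156. With eBayes with trend, 9 rose in OB-/-/SHP-/- against SHP-/- and 2 in the interaction, where 671 and 59 of all genes rose, against 614 and 44 in the main fit. The cause of these last shifts was not tested.

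With each array left out in turn, 4 to 8 genes rose and 3 to 6 fell in OB-/- against wild-type, and the median of the set ran from -0.091, without OB-/- replicate 1, to 0.15. In OB-/-/SHP-/- against SHP-/- 1 to 5 rose and 0 to 1 fell, with medians of 0.032 to 0.073. In SHP-/- against wild-type 0 rose and 0 to 1 fell, with medians of -0.085 to 0.013. In OB-/-/SHP-/- against OB-/- 0 to 4 rose and 0 to 1 fell, with medians of -0.014 to 0.17. In the interaction 0 to 1 rose and 0 fell, with medians of 0.077 to 0.21. A genotype left with a single array was assumed to vary like the others. The counts over all genes also moved with the array left out, and whether those of the set moved more was not tested. The median over all genes ran from -0.014 to -0.005 in OB-/- against wild-type and from 0.0007 to 0.055 in OB-/-/SHP-/- against SHP-/-. It ran from -0.045 to -0.004 in SHP-/- against wild-type, from -0.017 to 0.037 in OB-/-/SHP-/- against OB-/- and from 0.011 to 0.059 in the interaction.

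The labels do not say whether the replicate numbers pair the samples. The differences between replicates correlated at -0.11 to 0.20 between genotypes, the highest for wild-type and OB-/-. With a single difference per genotype, this cannot settle whether samples were paired. With the replicate number as a block, 7 rose and 6 fell in OB-/- against wild-type, 5 rose and 1 fell in OB-/-/SHP-/- against SHP-/-, 3 rose in OB-/-/SHP-/- against OB-/-, where Hal did not pass (limma adjusted p = 0.0559), and 1 in the interaction. Of all genes, 973 rose and 1174 fell in the first of these and 633 and 726 in the next. In OB-/-/SHP-/- against OB-/- 165 rose, and 48 in the interaction.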
